A study of Saccharomyces cerevisiae with 44 samples.

Results

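The comparison described here is the difference between 2 transcriptional responses of budding yeast. It takes the response to MTX (MTX cultures minus their vehicle, CM), subtracts the response to DOX (DOX cultures minus their vehicle, CD), and is expressed on the log2 scale for every gene. All 4 groups were Saccharomyces cerevisiae W303 wild type grown in SC (synthetic complete) medium at one temperature. The MTX cultures received 150 µg/mL MTX, delivered in dilute sodium hydroxide, and the CM cultures received the sodium hydroxide alone. The DOX cultures received 25 µg/mL DOX, delivered in water, and the CD cultures received water. The labels give only these abbreviations, which are the usual ones for methotrexate and doxorubicin. The 2 agents differed in dose, and each exposure ran to a time set by that agent's IC50, which the labels do not state in minutes, so agent, dose and time cannot be told apart in any value given here. The comparison used 16 of the 44 libraries of the series, with 4 libraries per group from 2 cultures with 2 technical replicates each. Members were not selected: of 6692 features in the count tables, all 6344 that passed the filter on low counts were tested.

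Methotrexate blocks dihydrofolate reductase, which in yeast is encoded by DFR1. This enzyme keeps folate reduced, and reduced folates carry the one-carbon units needed to make thymidylate, purines and methionine. Doxorubicin inserts into DNA and traps topoisomerase II, the product of TOP2, on cut DNA, and it also cycles between oxidised and reduced forms. When replication stalls or DNA is damaged, the Mec1, Rad53 and Dun1 kinases relieve repression of ribonucleotide reductase, the enzyme that makes deoxyribonucleotides.

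Reads assigned to genes numbered 10937081 to 12813906 per MTX library, 11206835 to 14133239 per CM library, 8067611 to 8911112 per DOX library and 10787191 to 12896932 per CD library. The DOX libraries were the shallowest of the 16, and thinning every culture to the depth of the shallowest one left 1297 called differences. Features of the mitochondrial genome took 0.221 to 0.279% of counts in MTX libraries, 0.314 to 0.384% in CM libraries, 0.537 to 0.574% in DOX libraries and 0.323 to 0.362% in CD libraries. Features within the ribosomal DNA took 1.19 to 1.48% in MTX, 1.11 to 1.41% in CM, 2.09 to 2.39% in DOX and 1.33 to 1.5% in CD libraries. Technical replicates of 1 culture differed by more than sampling noise, with a spread of 0.25 to 0.46 (SD over genes of the log2 difference). Chi-square per degree of freedom within cultures 1 and 2 was 49.9 and 39.4 in MTX, 6.39 and 64.8 in CM. It was 17.2 and 3.57 in DOX, and 32.7 and 12.8 in CD. Between the 2 summed cultures it was 40.5, 30.4, 22.7 and 14.4. In MTX, CM and CD, a technical pair exceeded the pair of summed cultures. The second technical replicates of both MTX cultures, CM culture 2, DOX culture 1 and CD culture 1 deviated from their first ones in a shared direction across genes (pairwise correlations of 0.34 to 0.65), and the origin of that deviation was not tested. With the first technical replicate of every culture alone, 1419 differences were called, of which 1147 were among the 1352 called from the summed counts. Counts from the first technical replicates alone are given with the gene lists. The second technical replicates alone gave 616 calls, 604 of them among the 1352, and smaller counts in many lists than the summed counts. Higher genes numbered 5 for ribonucleotide reductase, 4 for DNA damage, 7 for phospholipid and 4 for ribosomal protein genes. Lower ones numbered 10 for proteasome, 6 for heat shock, 5 for amino acid synthesis and 2 for ergosterol genes. Counts stayed at 8 higher for permeases, and glucose-repressed genes had 2 higher.

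Across all genes, the DOX response was the wider of the 2. In MTX against CM, 1259 genes were called (19.8% of those tested), of which 688 rose (10.8%) and 571 fell (9.0%). In DOX against CD, 2615 genes were called (41.2%), of which 1332 rose (21%) and 1283 fell (20.2%). The difference between the 2 responses was called in 1352 genes (21.3%). It was higher, meaning more positive for MTX than for DOX, in 638 genes (10.1%) and lower in 714 genes (11.3%), and 398 of the higher and 333 of the lower genes differed at least 2-fold. A call is a Benjamini-Hochberg adjusted p below 0.05 over all 6344 genes in edgeR's quasi-likelihood test. The vehicles were also set against each other: CM against CD gave 0 calls by edgeR and 0 by DESeq2, with 201 genes at an unadjusted edgeR p under 0.05.

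Most called differences came from genes that passed the test in 1 response and not in the other. Of the 638 higher genes, 394 fell in DOX and were not called in MTX, 120 rose in MTX and were not called in DOX, and 55 rose in MTX and fell in DOX. Of the 714 lower genes, 484 rose in DOX and were not called in MTX, 103 fell in MTX and were not called in DOX, and 78 fell in MTX and rose in DOX. Genes moving the same way in both were common too, with 310 rising in both and 215 falling in both, and the difference was called in 14 higher and 22 lower among those rising and in 17 higher and 1 lower among those falling. Across genes, the 2 responses had a Pearson correlation of 0.252 and a Spearman correlation of 0.271, given as a description since genes are not independent replicates. The spread of the responses over genes was 0.55 for MTX, 0.76 for DOX, 0.82 for their difference and 0.25 for CM against CD (SD of log2).

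**Figure D1:**
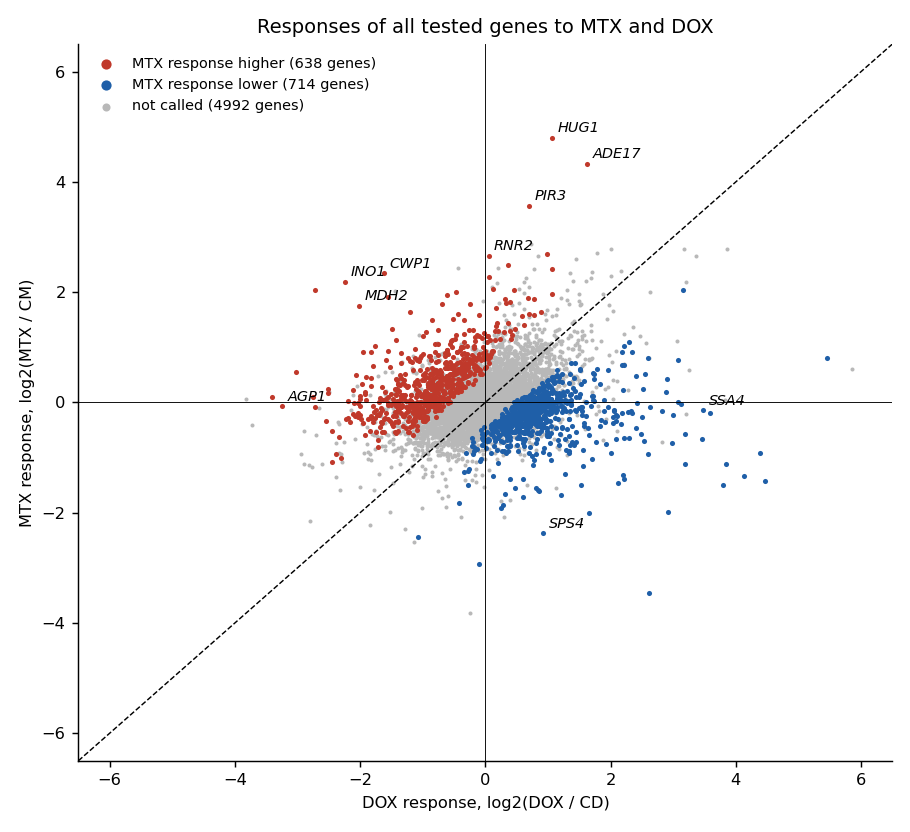
Each point is 1 of 6344 genes, with its DOX response on the horizontal axis and its MTX response on the vertical axis, both in log2, and the dashed line marks equal responses. Red genes (638) had a higher and blue genes (714) a lower MTX response at an adjusted p below 0.05, and most of both colours lie along the horizontal axis, where the MTX response is near 0.

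Ribonucleotide reductase was higher in the difference as a group. Of 10 tested genes of the enzyme and its regulators, 8 were higher and 0 lower, with a median difference of 1.27 against 0.03 over all genes. In MTX against CM 8 of them rose, and in DOX against CD 3 rose and 2 fell. The same count of 8 was higher in the first technical replicates alone, and 5 did when CD culture 1 was left out. RNR2, a small subunit of the enzyme, had 1271 and 1194 CPM (counts scaled to a common library size, comparable between samples but not between genes) in the MTX cultures, 188 and 203 in the CM cultures, 196 and 189 in the DOX cultures and 201 and 170 in the CD cultures. The MTX cultures stood above all others, which overlapped. The difference was 2.61 ± 0.25 (log2 ± SE, edgeR adjusted p = 5.62e-06). RNR1, the large subunit, had 687 and 685 CPM in MTX, 176 and 179 in CM, 103 and 100 in DOX and 153 and 160 in CD cultures. It therefore rose with MTX and fell with DOX, with no overlap between either treatment and its vehicle, and differed by 2.57 ± 0.27 (adjusted p = 1.65e-05, edgeR).

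RNR4, the second small subunit, followed RNR2, with 1586 and 1495 CPM in MTX, 407 and 471 in CM, 512 and 470 in DOX and 396 and 382 in CD cultures. Its difference was 1.48 ± 0.21 (edgeR adjusted p = 0.000193), and its DOX response of 0.33 ± 0.15 was not called. RNR3, the damage-inducible large subunit, rose in both arms, with 68.4 and 64.9 CPM in MTX, 9.24 and 12.8 in CM, 27.4 and 33.3 in DOX and 9.27 and 12.9 in CD cultures. Its responses were 2.60 ± 0.35 with MTX and 1.45 ± 0.34 with DOX, and the difference of 1.15 ± 0.47 was not called (edgeR adjusted p = 0.0932). HUG1, a small inhibitor of the reductase induced by the checkpoint, was scarce, with 9.96 and 12 CPM in MTX, 0.618 and 0.128 in CM, 1.33 and 1.16 in DOX and 0.723 and 0.451 in CD cultures. The difference was 3.74 ± 0.99 (edgeR adjusted p = 0.0136), and the call was lost without CM culture 2 (3.07, adjusted p = 0.0553) or CD culture 1 (3.37, adjusted p = 0.0955).

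The wider set of DNA damage induced genes followed in part. It shares RNR2, RNR3, RNR4, HUG1, DUN1 and RFX1 with the reductase list, so its counts are not separate from those above. All of these shared genes but RNR3 were called higher. Of 21 tested, 10 were higher and 1 was lower, with a median of 0.90, and 12 rose with MTX while 5 rose and 4 fell with DOX. From the first technical replicates alone 12 were higher and 1 lower, and the higher count fell to 6 without CM culture 2, DOX culture 1 or CD culture 2 and to 5 without CD culture 1. The lower gene, DDI1, a ubiquitin-binding protease whose call was lost in 6 of the 8 fits without 1 culture, had 124 and 111 CPM in MTX, 107 and 103 in CM, 173 and 211 in DOX and 99.3 and 101 in CD cultures.

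Recombination genes had a median difference of -0.18 over 16 tested. The 1 lower gene, also 1 in the first technical replicates, was RAD59, which assists strand annealing and had 43.2 and 49.3 CPM in DOX cultures against 19.1 and 19.6 in CD cultures. In MTX and CM cultures RAD59 stayed between 16.4 and 18.8 CPM, and its difference was -1.36 ± 0.29 (edgeR adjusted p = 0.00367). Among 8 topoisomerase and adduct removal genes 0 were called from the summed counts and 1 from the first technical replicates, the nuclease gene RAD10 (0.62 ± 0.22, adjusted p = 0.0535 in the main edgeR test and 0.016 in the first replicates). TOP2 had 285 and 338 CPM in MTX, 213 and 195 in CM, 442 and 454 in DOX and 229 and 246 in CD cultures. Both treatments were above their vehicles, by 0.61 ± 0.12 (edgeR adjusted p = 0.00291) for MTX and 0.91 ± 0.12 (adjusted p = 3.86e-05) for DOX, and the difference of -0.30 ± 0.17 was not called (adjusted p = 0.23).

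Of 30 tested G1-S genes driven by the SBF and MBF factors, 13 rose with MTX (10.8% of all genes did) and 10 rose with DOX (21% of all genes), and 1 fell with each. Their median difference was 0.23, with 3 higher and 1 lower, also in the first technical replicates, a share of higher genes near the 10.1% of all genes. The higher ones were RFA3, a subunit of the single-strand binding protein RPA (1.26 ± 0.23), HCM1, an S-phase transcription factor (1.21 ± 0.27), and NRM1, a repressor of MBF (1.63 ± 0.43), and NRM1 lost its call without CM culture 2 (1.49) or CD culture 1 (1.39). The lower one was the primase subunit gene PRI1 (-0.82 ± 0.19). The MBF site, the MluI cell cycle box ACGCGT, was present in the 300 bases before the coding start of 17 of the 30 G1-S genes (56.7%), against 3.53% of 5898 such windows. RNR1 and RFA3 had none in that window.

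Pyrimidine synthesis also moved apart between the agents. Of 14 pyrimidine and dTTP precursor genes, 7 were higher and 0 lower, with a median of 0.72, and 7 rose with MTX while 1 rose and 4 fell with DOX. In the first technical replicates 6 were higher. URA4, dihydroorotase, had 275 and 280 CPM in MTX, 131 and 128 in CM, 112 and 109 in DOX and 111 and 107 in CD cultures. MTX cultures alone were high, with a difference of 1.08 ± 0.16 (edgeR adjusted p = 0.000283). URA3, orotidine-5-phosphate decarboxylase, had 799 and 968 CPM in MTX, 562 and 444 in CM, 240 and 254 in DOX and 525 and 641 in CD cultures. MTX was above and DOX below its vehicle without overlap, giving 2.05 ± 0.32 (edgeR adjusted p = 0.000379), and URA1, dihydroorotate dehydrogenase, showed the same split at 1.62 ± 0.23.

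Folate and one-carbon genes split internally. Of 21, 3 were higher and 5 lower with a median of -0.27, and the first technical replicates gave the same counts, but the lower count fell to 2 or 3 when any 1 culture other than DOX culture 2 was left out. MTD1, a cytosolic methylenetetrahydrofolate dehydrogenase, had 216 and 215 CPM in MTX, 35.3 and 31.1 in CM, 59.0 and 65.9 in DOX and 31.7 and 31.8 in CD cultures. Both treatments were above their vehicles and MTX by more, a difference of 1.72 ± 0.31 (edgeR adjusted p = 0.00121). MET13, methylenetetrahydrofolate reductase, had 98.9 and 114 CPM in MTX, 42.4 and 48.6 in CM, 32.7 and 33 in DOX and 40.2 and 50.7 in CD cultures, so it rose with MTX and fell with DOX. SHM2, the cytosolic serine hydroxymethyltransferase, differed by 1.59 ± 0.47 (edgeR adjusted p = 0.0263), a call lost whenever any 1 of the 8 cultures was left out (1.5 to 1.69, adjusted p 0.0517 to 0.0889).

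The lower folate genes included the mitochondrial counterpart SHM1 (-0.84 ± 0.18), ABZ1 of the p-aminobenzoate step (-0.96 ± 0.16) and FOL2, GTP cyclohydrolase I (-0.54 ± 0.15). FOL2 lost its call in 6 of the 8 fits that left out a culture, all but those without MTX culture 1 or DOX culture 2. DFR1 itself was scarce, with 9.49 and 11.1 CPM in MTX, 13.3 and 9.55 in CM, 8.68 and 11.1 in DOX and 7.27 and 6.81 in CD cultures, and the groups overlapped on the MTX side. Its difference of -0.65 ± 0.38 was not called (edgeR adjusted p = 0.23). CDC21, thymidylate synthase, had 24.6 and 25.6 CPM in MTX, 12.7 and 10.1 in CM, 18.4 and 19.6 in DOX and 11.4 and 9.52 in CD cultures. Both agents raised it, MTX by 1.14 ± 0.18 and DOX by 0.86 ± 0.19, and the difference of 0.28 ± 0.26 was not called (edgeR adjusted p = 0.47).

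Of 11 purine synthesis genes, 8 rose with MTX and 8 with DOX, and 0 fell with either. Their difference had a median of 0.54, with 3 higher and 1 lower in the summed counts and 4 higher and 1 lower in the first technical replicates. ADE17, which makes IMP with a folate-bound formyl group, had 1413 and 1190 CPM in MTX, 62.5 and 67.1 in CM, 213 and 236 in DOX and 72.6 and 73.2 in CD cultures. All 4 treated cultures were above all 4 vehicle cultures, and the MTX response was the larger, at 4.33 ± 0.57 against 1.62 ± 0.51 for DOX. The difference of 2.71 ± 0.72 (edgeR adjusted p = 0.0159) lost its call without CM culture 1 (2.68), CM culture 2 (2.76) or DOX culture 1 (2.64). ADE1 differed by 1.35 ± 0.33 and ADE13 by 0.90 ± 0.24, and ADE13 lost its call without MTX culture 1 (0.76, edgeR adjusted p = 0.0569).

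ADE16, the paralog of ADE17, was the lower member, with 592 and 560 CPM in MTX, 622 and 687 in CM, 1084 and 1077 in DOX and 668 and 720 in CD cultures. The DOX cultures alone were high, a difference of -0.82 ± 0.17 (edgeR adjusted p = 0.00243). The core TGACTC, bound by Bas1 with Bas2 and by Gcn4, was in the windows of 8 of the 11 purine genes (72.7%) and of 7.8% of all windows, on either strand. The match upstream of ADE17, the purine gene with the largest difference, is in capitals in chrXIII:509381-509580, minus strand, 300 to 101 bases before the coding start, which overlaps no other feature.
ADE17: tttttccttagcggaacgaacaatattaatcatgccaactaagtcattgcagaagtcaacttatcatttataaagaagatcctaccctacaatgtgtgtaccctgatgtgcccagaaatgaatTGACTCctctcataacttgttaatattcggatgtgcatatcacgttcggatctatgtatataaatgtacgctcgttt

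Genes of inositol and phospholipid synthesis fell with DOX and held or rose with MTX. Of 16, 11 were higher and 0 lower, with a median of 1.02, in the summed counts and in the first technical replicates alike. With DOX 15 of the 16 fell and 0 rose, and with MTX 1 rose and 0 fell. INO1, inositol-3-phosphate synthase, had 995 and 914 CPM in MTX, 183 and 236 in CM, 34.7 and 37 in DOX and 203 and 135 in CD cultures. It was the 1 that rose, and MTX and DOX lay on opposite sides of the vehicles, which overlapped. Its difference of 4.43 ± 0.27 (edgeR adjusted p = 5.98e-08) was the largest among the genes named by rank.

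ITR1, the inositol transporter, had 2578 and 2540 CPM in MTX, 2893 and 3124 in CM, 1028 and 812 in DOX and 3274 and 2835 in CD cultures. The MTX response of -0.23 ± 0.12 was not called, and the difference was 1.5 ± 0.17 (edgeR adjusted p = 3.06e-05). PSD1, mitochondrial phosphatidylserine decarboxylase, had 340 and 320 CPM in MTX, 249 and 267 in CM, 102 and 81.4 in DOX and 240 and 213 in CD cultures, a difference of 1.67 ± 0.19. The Ino2-Ino4 core CATGTG, read on either strand, was in the windows of 11 of the 16 genes (68.8%) and 7.05% of all windows. INO1 and ITR1 each had 2 copies, in capitals in the stretches 300 to 101 bases before their coding starts, both read on the minus strand. That of INO1 is chrX:136034-136233, which overlaps the feature YJL152W, and that of ITR1 is chrIV:1445568-1445767, which overlaps none.
INO1: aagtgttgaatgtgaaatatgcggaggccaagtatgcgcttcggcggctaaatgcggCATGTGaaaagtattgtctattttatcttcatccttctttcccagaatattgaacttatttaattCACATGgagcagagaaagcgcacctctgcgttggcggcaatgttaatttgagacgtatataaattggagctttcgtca
ITR1: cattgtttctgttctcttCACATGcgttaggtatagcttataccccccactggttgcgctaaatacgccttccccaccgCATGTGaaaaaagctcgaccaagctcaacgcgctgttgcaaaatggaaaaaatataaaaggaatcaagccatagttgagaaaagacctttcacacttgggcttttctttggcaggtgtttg

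**Figure D2:**
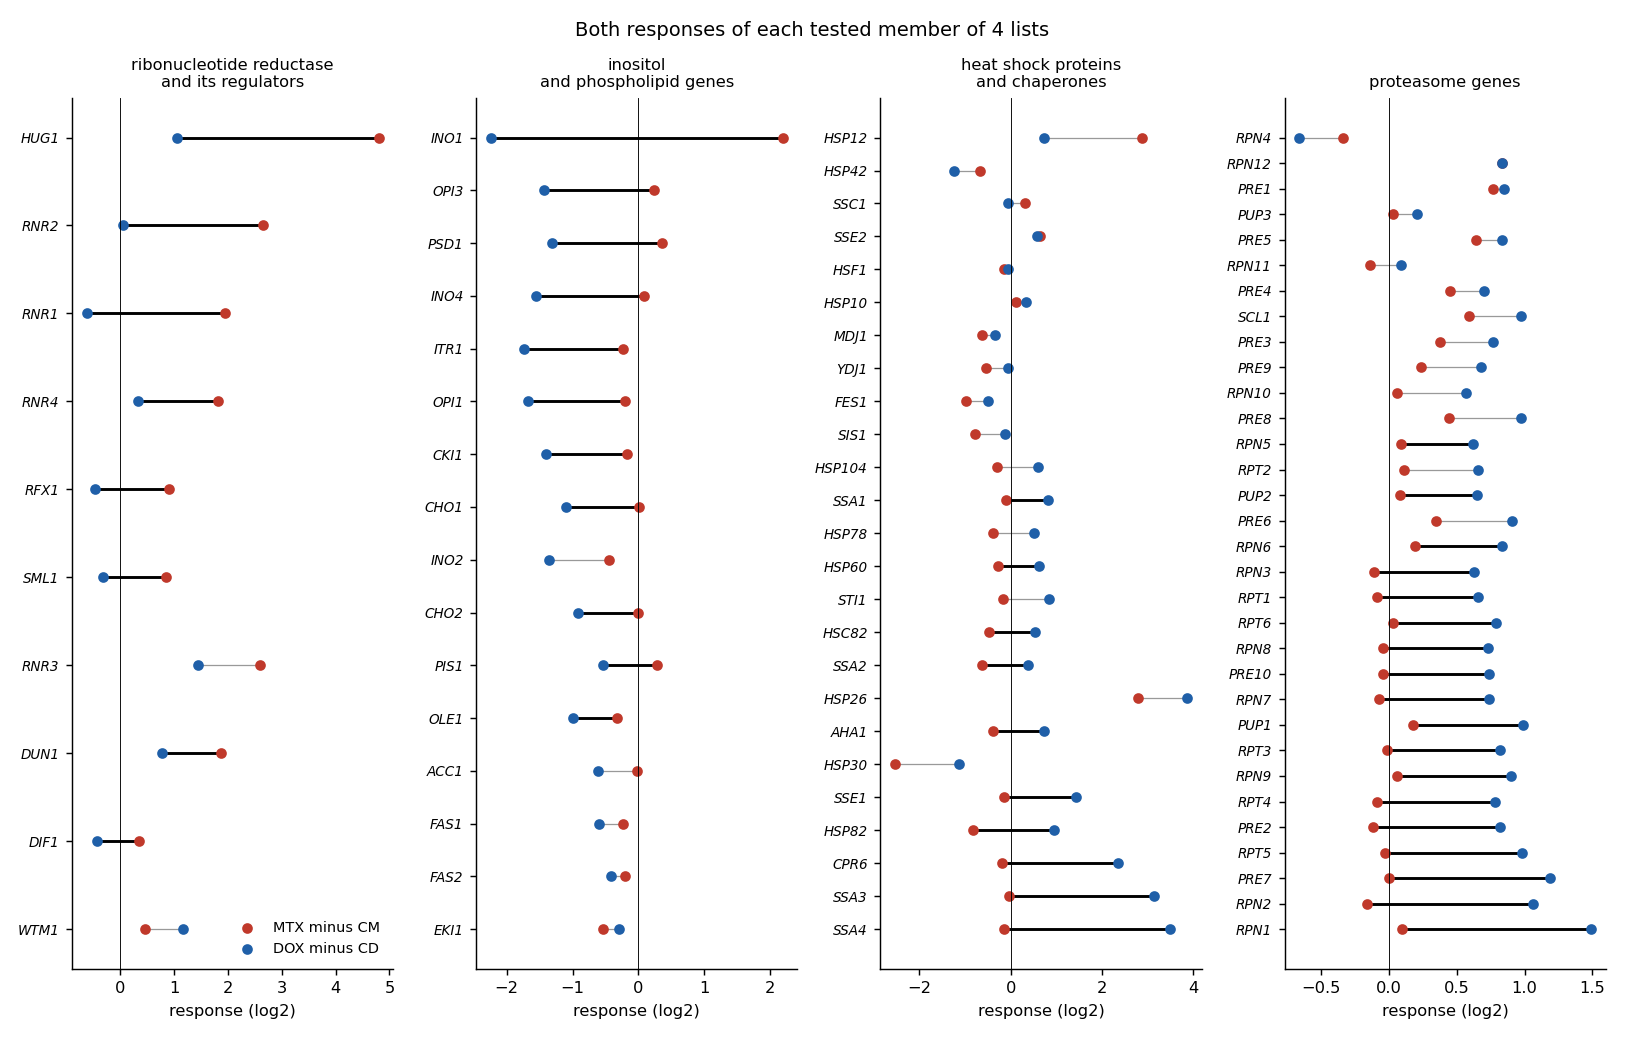
Each row is 1 tested gene of 4 lists, with its MTX response in red and its DOX response in blue, in log2, and thick black lines join responses whose difference was called. Reductase genes other than WTM1 and phospholipid genes other than EKI1 have red to the right of blue, and most proteasome and heat shock genes have blue to the right.

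Cell wall genes were the other large group of higher differences. Of 20, 11 were higher and 1 lower, with a median of 1.19, and 14 rose and 0 fell with MTX, while 5 rose and 6 fell with DOX. In the first technical replicates 10 were higher and 1 lower. CWP1, a wall mannoprotein, had 123 and 117 CPM in MTX, 22.2 and 25.5 in CM, 9.06 and 8.77 in DOX and 26.7 and 28.1 in CD cultures. MTX cultures were above and DOX cultures below both vehicles, a difference of 3.96 ± 0.40 (edgeR adjusted p = 1.06e-05). HSP150, a secreted wall glycoprotein, had the same shape with 177 and 191 CPM in MTX, 67.1 and 78.8 in CM, 28.7 and 36.2 in DOX and 87.0 and 95.6 in CD cultures, a difference of 2.83 ± 0.27. SED1, the major wall protein of stationary cells, differed by 2.48 ± 0.27.

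PIR3, a wall protein of the same list that ranked among the largest differences, had 45.3 and 43.5 CPM in MTX, 2.91 and 4.6 in CM, 7.04 and 5.79 in DOX and 3.81 and 4.06 in CD cultures. MTX raised it by 3.57 ± 0.34, and the difference was 2.87 ± 0.47 (edgeR adjusted p = 0.000552). The lower member was RLM1, the transcription factor of the wall integrity pathway (-1.37 ± 0.36, edgeR adjusted p = 0.0128). RLM1 lost its call without MTX culture 1 (-1.07), DOX culture 2 (-1.11) or CD culture 1 (-1.31).

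The list of amino acid and ammonium permeases also holds the peptide transporter PTR2 and the sensor SSY1. Of its 18 genes, 8 fell with MTX, PTR2 and SSY1 among them, and 13 with DOX. With either agent 0 rose, and 9.0% and 20.2% of all genes fell. In the difference 8 were higher and 2 lower, with a median of 0.42, and 9 higher and 2 lower in the first technical replicates. AGP1, a broad permease, had 944 and 713 CPM in MTX, 836 and 905 in CM, 113 and 88.8 in DOX and 997 and 919 in CD cultures. Only the DOX cultures were low, giving a difference of 3.18 ± 0.23 (edgeR adjusted p = 3.03e-07). GNP1, a glutamine permease (1.08 ± 0.17), and the ammonium permease MEP3 (1.44 ± 0.24) were higher as well.

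PTR2, the peptide transporter, ran the other way, with 44.1 and 42.2 CPM in MTX, 126 and 149 in CM, 175 and 170 in DOX and 148 and 128 in CD cultures. It was low in MTX cultures alone, and the difference was -1.99 ± 0.25 (edgeR adjusted p = 7.22e-05). The other lower member, SSY1, the amino acid sensor of the plasma membrane (-0.67 ± 0.18), lost its call without MTX culture 2 (-0.64), CM culture 2 (-0.60) or CD culture 2 (-0.62). Sugar uptake had fewer calls, 15.4% of its list against 21.3% of all genes. Of 13 hexose transporters and kinases, 2 were higher and 0 lower in the summed counts and in the first technical replicates, with a median of 1.01, and DOX lowered 7 while MTX lowered 1. HXT4, a high-affinity glucose transporter, had 1178 and 948 CPM in MTX, 1210 and 1480 in CM, 256 and 244 in DOX and 1314 and 1594 in CD cultures, a difference of 2.20 ± 0.47 (edgeR adjusted p = 0.00422). HXT2, also a glucose transporter, differed by 1.09 ± 0.27, and in both genes the DOX cultures were the low ones.

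**Figure D3:**
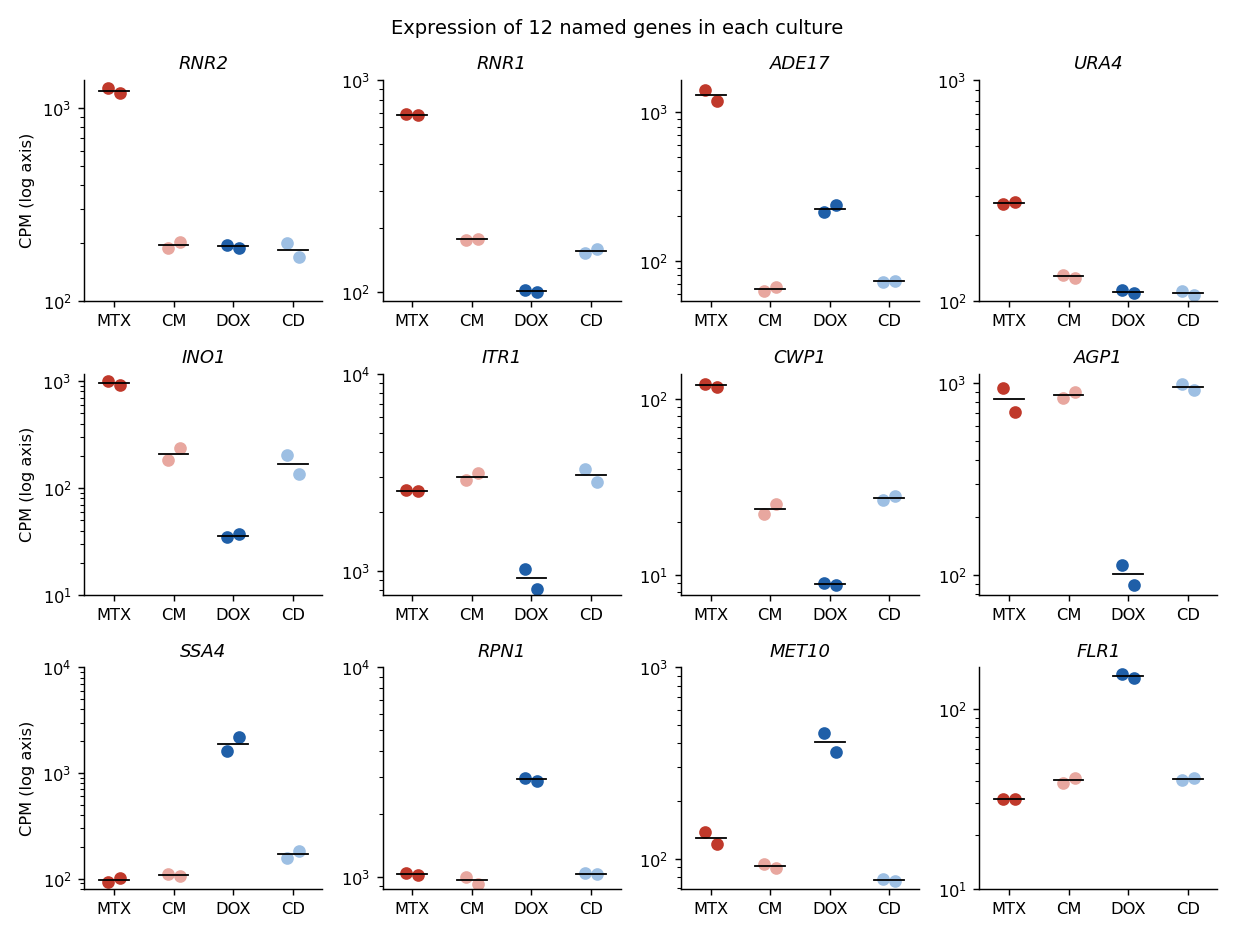
CPM of 12 named genes in each culture on log axes, with the groups in the order MTX, CM, DOX and CD, 2 points per group and a bar at their mean. RNR2, RNR1, ADE17 and URA4 are highest in MTX cultures, AGP1 and ITR1 are lowest in DOX cultures, INO1 and CWP1 are high in MTX and low in DOX, and SSA4, RPN1, MET10 and FLR1 are highest in DOX cultures.

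Among the lower differences, heat shock proteins and chaperones were the group with the largest single values. Of 25, 0 were higher and 10 lower, with a median of -0.92, and the first technical replicates gave 13 lower. The difference was above 0 in 4 of the 25, none of them called, with HSP12 the largest at 2.14. With DOX 11 rose and 1 fell, and with MTX 2 rose and 7 fell. SSA4, a stress-induced Hsp70, had 93.5 and 102 CPM in MTX, 111 and 105 in CM, 1627 and 2173 in DOX and 157 and 184 in CD cultures. The DOX cultures alone were high, a difference of -3.62 ± 0.51 (edgeR adjusted p = 0.000207). SSA3, another stress-induced Hsp70, had 71.3 and 76.3 CPM in MTX, 76.6 and 74.4 in CM, 671 and 775 in DOX and 83.8 and 82.0 in CD cultures, a difference of -3.16 ± 0.28.

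CPR6, an Hsp90 co-chaperone, had 75.6 and 86.6 CPM in MTX, 98.5 and 86.4 in CM, 365 and 404 in DOX and 73.2 and 78.8 in CD cultures. Its difference of -2.53 ± 0.19 had an edgeR adjusted p of 3.43e-07. SSE1, an Hsp110 exchange factor, differed by -1.57 ± 0.15. A pair of heat shock units, searched as TTCNNGAA or GAANNTTC, which are each their own reverse complement, was in the windows of 16 of the 25 genes (64%) and in 22.6% of all windows. SSA3 had none in that window and SSA4 had 1, in capitals here as the heat shock gene with the largest difference. The stretch is chrV:364289-364488, plus strand, 300 to 101 bases before the coding start, and overlaps no other feature.
SSA4: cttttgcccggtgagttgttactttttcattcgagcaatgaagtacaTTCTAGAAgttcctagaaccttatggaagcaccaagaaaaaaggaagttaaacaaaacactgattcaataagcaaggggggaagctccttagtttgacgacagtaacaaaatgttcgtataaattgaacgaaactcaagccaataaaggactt

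Proteasome genes were raised by DOX. Of 32 genes, 29 rose and 1 fell with DOX, while 6 rose and 0 fell with MTX. The difference was lower in 18 and higher in 0, with a median of -0.60, and lower in 20 in the first technical replicates. The member that fell with DOX was RPN4, which encodes the transcription factor of the proteasome genes and not a subunit. RPN1, a base subunit of the regulatory particle, had 1038 and 1026 CPM in MTX, 1003 and 928 in CM, 2960 and 2872 in DOX and 1040 and 1033 in CD cultures. DOX cultures alone were high, a difference of -1.40 ± 0.13 (edgeR adjusted p = 5.62e-06). PRE7, a core subunit, differed by -1.20 ± 0.18, and the ATPase RPT5 by -1.0 ± 0.15.

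The Rpn4 element known as PACE, GGTGGCAAA on either strand, was in the windows of 27 of the 32 proteasome genes (84.4%) and of 1.22% of all windows. The copy upstream of RPN1, the member with the largest difference, is in capitals in chrVIII:164812-165011, minus strand, 300 to 101 bases before the coding start, and the far end of this stretch lies in YHR028C.
RPN1: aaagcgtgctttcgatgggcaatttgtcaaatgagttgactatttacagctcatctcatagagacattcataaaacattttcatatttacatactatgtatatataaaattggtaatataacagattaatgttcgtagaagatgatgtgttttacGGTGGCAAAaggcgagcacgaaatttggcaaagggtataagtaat

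Sulfur assimilation rose mainly with DOX. Of 23 tested genes of sulfate assimilation and methionine synthesis, 12 rose and 2 fell with DOX, and 3 rose and 2 fell with MTX. In the difference 10 were lower and 1 higher, with a median of -0.56, and in the first technical replicates 8 were lower and 0 higher. MET10, a sulfite reductase subunit, had 138 and 119 CPM in MTX, 93.7 and 89.5 in CM, 455 and 360 in DOX and 78.1 and 76.0 in CD cultures. The DOX cultures were the highest, and the MTX cultures lay above their vehicle without passing the test (0.48 ± 0.20). The difference was -1.92 ± 0.29 (edgeR adjusted p = 0.000254). MET1, needed for the sulfite reductase cofactor, differed by -1.60 ± 0.25, and MET22, a phosphatase of sulfate activation, by -1.25 ± 0.21, in its case from a fall with MTX (-0.92 ± 0.15).

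The higher member was SAM2, S-adenosylmethionine synthetase, at 0.80 ± 0.24, a call lost in the first technical replicates (0.72) and without MTX culture 1, CM culture 2, DOX culture 2 or CD culture 1 (0.75 to 0.76). SAM2 had 254 and 238 CPM in MTX, 240 and 227 in CM, 99.6 and 89.8 in DOX and 164 and 150 in CD cultures. Its vehicles lay apart (CM minus CD, 0.57 ± 0.17, not called), and its MTX response was 0.07 ± 0.17. The Cbf1 site CACGTG, which is its own reverse complement, was in the windows of 8 of the 23 genes (34.8%) and of 3.58% of all windows. MET10 had 2, in capitals in chrVI:213012-213211, plus strand, 300 to 101 bases before the coding start, which overlaps no other feature.
MET10: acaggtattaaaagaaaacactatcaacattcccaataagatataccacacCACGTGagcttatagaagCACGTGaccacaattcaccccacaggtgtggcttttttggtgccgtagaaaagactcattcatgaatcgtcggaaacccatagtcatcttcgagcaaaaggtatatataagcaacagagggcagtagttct

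Amino acid synthesis genes under Gcn4, the activator of amino acid synthesis, had 18 of 42 rising and 6 falling with DOX, and 6 rising and 5 falling with MTX. The difference was lower in 14 and higher in 1, with a median of -0.41, and lower in 14 and higher in 2 in the first technical replicates. The lower count fell to 6 without MTX culture 2, DOX culture 1 or CD culture 1, to 7 without CM culture 2 and to 8 without CM culture 1 or CD culture 2. TRP2, anthranilate synthase, had 328 and 273 CPM in MTX, 283 and 302 in CM, 570 and 527 in DOX and 243 and 236 in CD cultures, a difference of -1.16 ± 0.19 (edgeR adjusted p = 0.000476). LYS2 of lysine synthesis (-1.05 ± 0.18) and THR4, threonine synthase (-0.97 ± 0.16), were lower, and CPA1, a carbamoyl phosphate synthetase subunit, was higher (0.86 ± 0.18).

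NAD synthesis genes had 3 of 12 lower and 1 higher, with a median of -0.23, and 4 lower and 1 higher in the first technical replicates. BNA7, of the kynurenine route, had 24.5 and 19.1 CPM in MTX, 35.3 and 34.2 in CM, 75.8 and 67.5 in DOX and 29.9 and 29.7 in CD cultures. It fell with MTX and rose with DOX, a difference of -1.94 ± 0.25 (edgeR adjusted p = 0.0001). The higher gene was TNA1, the nicotinic acid permease (0.77 ± 0.19).

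Genes of drug efflux under Pdr1 and Pdr3 rose mainly with DOX, 9 of 18 with 4 falling, against 3 rising and 1 falling with MTX. Of all genes, 21% rose and 20.2% fell with DOX, and 10.8% rose and 9.0% fell with MTX. In the difference 4 were lower and 0 higher, with a median of -0.20, also in the first technical replicates, and 2 were lower and 1 higher without MTX culture 2. The share with a called difference was 22.2%, near the 21.3% of all genes. FLR1, a multidrug exporter, had 31.5 and 31.7 CPM in MTX, 39.0 and 41.6 in CM, 158 and 149 in DOX and 40.2 and 41.2 in CD cultures. DOX cultures alone were high, a difference of -2.27 ± 0.26 (edgeR adjusted p = 3.39e-05). PDR3, one of the activators, differed by -1.12 ± 0.27. PDR5, the main efflux pump of the group, had 800 and 720 CPM in MTX, 545 and 542 in CM, 746 and 792 in DOX and 485 and 503 in CD cultures. Both treatments were above their vehicles without overlap, DOX passed the test (0.64 ± 0.19), MTX did not (0.48 ± 0.19, edgeR adjusted p = 0.075), and the difference of -0.15 ± 0.26 was not called (adjusted p = 0.711).

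Of 23 peroxide and thiol defence genes, 7 rose with MTX and 13 with DOX, with 0 falling, against 10.8% and 21% of all genes rising. In the difference 5 were lower and 2 higher, also in the first technical replicates, with a median of -0.28, and the lower count was 2 without MTX culture 2 and 3 without CM culture 2 or DOX culture 1. OYE2, an NADPH oxidoreductase, had 580 and 517 CPM in MTX, 611 and 662 in CM, 1217 and 1195 in DOX and 600 and 592 in CD cultures, a difference of -1.23 ± 0.15 (edgeR adjusted p = 4.16e-05). GTT1, a glutathione transferase, was the opposite, with 171 and 137 CPM in MTX, 36.7 and 37.1 in CM, 36.4 and 39.5 in DOX and 33 and 37 in CD cultures. MTX alone raised it, and the difference was 1.95 ± 0.42 (edgeR adjusted p = 0.00384). AHP1, a peroxiredoxin, went with GTT1 (1.07 ± 0.27).

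The mitochondrial genome moved in opposite directions in the 2 arms. Of 8 tested genes encoded there, 3 fell and 0 rose with MTX, and 6 rose and 0 fell with DOX. The difference was lower in 6 and higher in 0, with a median of -1.30, and lower in 7 in the first technical replicates. ATP6, an ATP synthase subunit, had 93.6 and 73.5 CPM in MTX, 157 and 156 in CM, 269 and 236 in DOX and 171 and 139 in CD cultures. MTX cultures were the lowest and DOX cultures the highest, a difference of -1.61 ± 0.29 (edgeR adjusted p = 0.00105). COX1, a cytochrome oxidase subunit, differed by -1.5 ± 0.17 and COB, cytochrome b, by -1.39 ± 0.20, and both are uncertain because other features overlap them. In these cultures, fewer mitochondrial genomes per cell and less RNA per genome cannot be told apart. Of 35 nuclear respiratory chain genes, 9 rose with MTX and 7 with DOX, the second a share near the 21% of all genes, and only SDH3, of succinate dehydrogenase, had a called difference (1.09 ± 0.36), which was lost whenever 1 culture was left out (1.03 to 1.17). In the first technical replicates 2 nuclear respiratory genes were called.

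Of 8 core histone genes, 3 fell with MTX and 8 with DOX. All 8 differences were above 0, from 0.19 to 0.77, and 3 were called higher, HHT2 (0.74 ± 0.15), HTA2 (0.77 ± 0.26) and HHF2 (0.52 ± 0.17), the last with a near-identical copy. In the first technical replicates 2 were called, HHT2 but neither HTA2 nor HHF2, and 1 was called without either CM culture, DOX culture 1 or either CD culture. Of 17 genes of the M-G1 interval, 8 fell with MTX and 10 with DOX, and EGT2, a cell separation protein (0.92 ± 0.29), was higher and DSE4, a daughter cell glucanase (-0.95 ± 0.29), lower. EGT2 lost its call in 7 of the 8 fits without 1 culture, and DSE4 in all 8 and in the first technical replicates, where 2 genes of the list were higher and 0 lower.

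G2-M genes had 5 of 17 lower and 1 higher, with 4 and 1 in the first technical replicates, and the lower count was 2 without MTX culture 2, CM culture 1, DOX culture 2 or CD culture 2 and 3 without MTX culture 1 or CD culture 1. CLB1, a mitotic cyclin, was the higher one, with 244 and 230 CPM in MTX, 196 and 216 in CM, 81.7 and 77.9 in DOX and 207 and 207 in CD cultures. MYO1, the cytokinetic myosin, was lower, with 310 and 348 CPM in MTX, 369 and 338 in CM, 763 and 750 in DOX and 347 and 385 in CD cultures.

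Of 138 genes in the list of cytosolic ribosomal proteins, 40 have a near-identical copy and are uncertain. The list also took in RPP1 by its name, an RNase P subunit gene and not a ribosomal protein gene (difference -0.09). Among all 138, 21 fell with MTX (9.0% of all genes did) and 51 with DOX (20.2% of all genes), and 0 rose with either. The median difference of the list was 0.01 against 0.03 over all genes. In the difference 13 were higher and 1 lower, a share of higher genes near the 10.1% of all genes, and 19 and 0 in the first technical replicates, and the higher count was 3 to 7 without any 1 culture other than DOX culture 1. RPL22B, a minor ribosomal protein copy, had 58.2 and 54.8 CPM in MTX, 41.1 and 48.0 in CM, 12.2 and 10.9 in DOX and 43.6 and 47.2 in CD cultures. The DOX cultures were low, a difference of 2.31 ± 0.30 (edgeR adjusted p = 8.96e-05). Of all genes, 21.3% had a called difference. The share was below that for ribosome biogenesis genes (6.67%) and near it for RNA polymerase I and III genes (19.2%). Ribosome biogenesis genes had 3 of 60 lower and 1 higher, and 3 and 2 in the first technical replicates, with 1 lower without DOX culture 1, and RNA polymerase I and III genes 4 of 26 lower and 1 higher, also in the first technical replicates, the higher one being MAF1, the repressor of polymerase III (1.03 ± 0.25).

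Among nutrient, metal and sterol lists, the share with a called difference was 33.3% for iron uptake and 43.8% for phosphate starvation genes. It was 27.3% for zinc and copper and 25% for ergosterol genes, against 21.3% of all genes. Iron uptake genes of Aft1 had 6 of 24 lower and 2 higher, and 6 and 1 in the first technical replicates, with the lower count at 1 without MTX culture 2 or CM culture 2 and at 3 without either DOX culture or CD culture 2. The higher count was 1 in 5 of the 8 fits without 1 culture. FRE2, a ferric reductase, differed by -1.48 ± 0.32. Phosphate starvation genes had 4 of 16 lower and 3 higher, and 5 and 2 in the first technical replicates, with the lower count at 0 without MTX culture 2 or DOX culture 1 and at 1 without CM culture 2 or CD culture 2. PHM8, a nucleotide phosphatase of that list, had 186 and 164 CPM in MTX, 43.5 and 51.3 in CM, 44.2 and 60.8 in DOX and 43.1 and 41.5 in CD cultures, and differed by 1.57 ± 0.37 (edgeR adjusted p = 0.00623). Zinc and copper genes had 3 of 11 lower and 0 higher, also in the first technical replicates, and 1 lower without MTX culture 2, CM culture 1, DOX culture 1 or CD culture 2. Ergosterol genes had 6 of 24 lower and 0 higher, 7 lower and 4 higher in the first technical replicates, and 3 lower without MTX culture 2, CM culture 2, DOX culture 1 or CD culture 2.

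The remaining lists had small numbers of called differences. As shares, MCM and licensing genes (28.6%) and GTP synthesis genes (25%) were above the 21.3% of all genes. Unfolded protein response genes (16.7%) and glucose-repressed carbon genes (8.33%) were below it. Trehalose and glycogen genes and pentose phosphate genes had 0 of 16 and 0 of 11 called, also in the first technical replicates, with medians of 0.69 and 0.36, and wide standard errors in GLG1, a glycogenin (1.69 ± 0.60, edgeR adjusted p = 0.0601), and SOL4 of the pentose phosphate path (2.28 ± 0.94, adjusted p = 0.0975). Unfolded protein response genes had 1 of 12 higher (DER1, 0.76 ± 0.21) and 1 lower (ERO1, -0.70 ± 0.23), and 1 and 2 in the first technical replicates, and without 1 culture DER1 lost its call in 5 and ERO1 in 8 of the 8 fits. MCM and licensing genes had 3 of 14 lower and 1 higher, also in the first technical replicates, with the lower count at 1 without MTX culture 2, CM culture 1, either DOX culture or CD culture 2. GTP synthesis genes had 1 of 4 lower, also in the first technical replicates, GUA1 (-0.73 ± 0.20), lost without MTX culture 2, CM culture 2, DOX culture 1 or CD culture 2. Glucose-repressed carbon genes had 1 of 24 higher and 1 lower. The higher one, MDH2, the cytosolic malate dehydrogenase of gluconeogenesis, had 332 and 319 CPM in MTX, 91.5 and 102 in CM, 16.4 and 21.8 in DOX and 82.2 and 73.1 in CD cultures. It rose with MTX and fell with DOX, and differed by 3.77 ± 0.50 (edgeR adjusted p = 0.00012). MLS1, malate synthase, was the lower one (-1.21 ± 0.29) and was not called in the first technical replicates (-0.90, edgeR adjusted p = 0.0527).

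**Figure D4:**
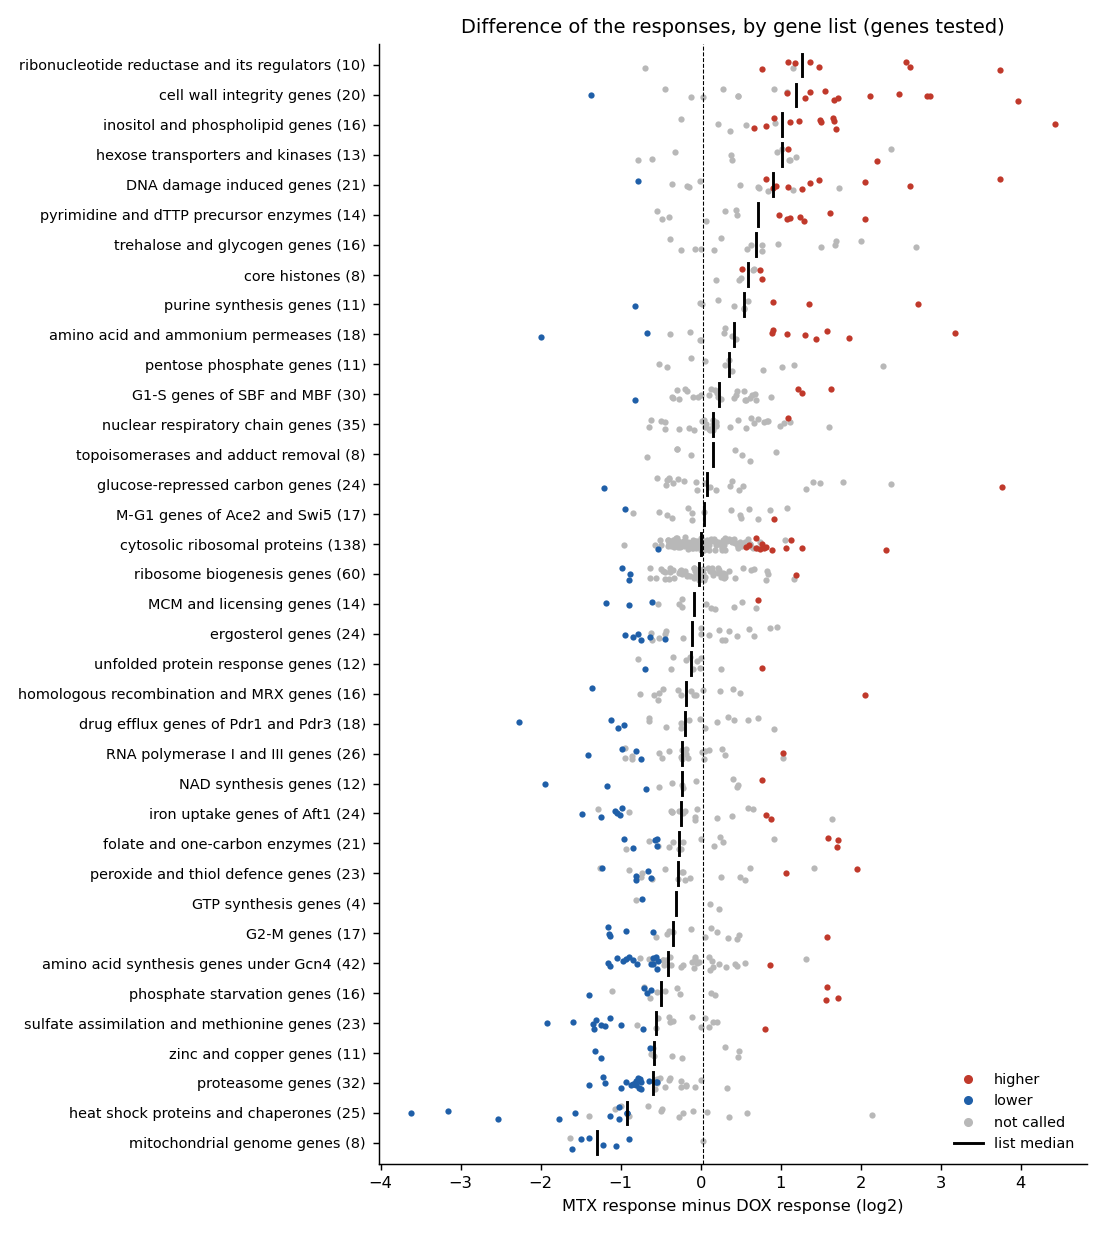
Each point is the difference of the responses (log2) of 1 tested gene, by list, in red where higher, blue where lower and grey where not called, with a black bar at the list median and a dashed line at the median of all genes (0.03). Medians run from 1.27 for ribonucleotide reductase and its regulators to -1.30 for mitochondrial genome genes.

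The remaining genes with the largest differences fell outside these lists. Among the higher ones, YPT53, an endosomal Rab GTPase, had 21.4 and 21.1 CPM in MTX, 14.4 and 14.7 in CM, 1.9 and 1.77 in DOX and 15.5 and 14.3 in CD cultures, a difference of 3.57 ± 0.86 (edgeR adjusted p = 0.00886). SUR1, of sphingolipid mannosylation (2.75 ± 0.31), and STP4, a zinc finger protein (2.68 ± 0.32), had the same shape, low in DOX cultures alone. DPI8 (2.78 ± 0.55) and RTC2, a vacuolar amino acid transporter (2.73 ± 0.60), were also low in DOX, and their MTX responses of 1.02 ± 0.37 and 0.91 ± 0.41 were not called.

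The lower genes outside the lists were mostly raised by DOX. GAS2, a spore wall glucanosyltransferase, had 23.3 and 23.6 CPM in MTX, 21.6 and 25.4 in CM, 170 and 167 in DOX and 21.1 and 19.2 in CD cultures. CRR1, of the spore wall (-2.56 ± 0.42), PRM1, of mating cell fusion (-2.43 ± 0.29), and SET4, a SET domain protein (-2.70 ± 0.41), were likewise high in DOX cultures alone. SPS4, a sporulation gene, had 4.43 and 4.44 CPM in MTX, 25.4 and 20.3 in CM, 37.7 and 50.2 in DOX and 24.2 and 22.3 in CD cultures. It fell with MTX and rose with DOX, a difference of -3.29 ± 0.39 (edgeR adjusted p = 4.43e-05).

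MRM2, a mitochondrial rRNA methyltransferase, had 43.9 and 40.4 CPM in MTX, 46.9 and 49.5 in CM, 201 and 196 in DOX and 42.9 and 44.5 in CD cultures, a difference of -2.38 ± 0.18 (edgeR adjusted p = 3.43e-07). GAL1, galactokinase, differed by -2.40 ± 0.36 and SUT2, a regulator of sterol uptake, by -2.26 ± 0.30. MPH2 (-2.35 ± 0.34) and MPH3 (-2.31 ± 0.26), which encode maltose permeases, are near-identical copies, so their values are uncertain. PDC5, a minor pyruvate decarboxylase, had 25.6 and 19.1 CPM in MTX, 39.1 and 44.1 in CM, 93.8 and 79.2 in DOX and 41.3 and 27.1 in CD cultures, with a fall under MTX and a rise under DOX and a difference of -2.23 ± 0.33 (edgeR adjusted p = 0.000232).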

How the data were processed

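Total RNA was sequenced and counted per gene in 44 libraries from 22 yeast cultures, which the labels call biological replicates, of which 16 libraries from 8 cultures enter this comparison. The authors deposited raw read counts made with featureCounts 1.6.0, per the file headers, on 6692 sacCer3 gene models, from Bowtie2 alignments whose file names point to local mode and removal of duplicates. The headers show no strand, pairing or multi-overlap option, so genes with overlaps or near-identical copies are named as uncertain. Technical replicates were summed per culture. Counts were fitted with edgeR 4.0.16 (R 4.3.3) on all 22 cultures with 11 group means, TMM scaling, filterByExpr (minimum count 10, minimum total 15), robust quasi-likelihood tests and Benjamini-Hochberg adjustment over 6344 genes; SE is the log2 difference divided by the square root of F. CPM use TMM library sizes and are not per length. DESeq2 1.42.0, other scalings, no filter, the 8 cultures alone, a replicate block, left-out cultures, thinned counts and single technical replicates were alternatives. The code was tested on simulated data.

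The gene lists and the comparison were chosen with earlier results of these data known. Named genes were the 15 largest called differences in each direction with at least 10 CPM on average, a standard name and the same sign in all 16 combinations of cultures, up to 3 called members per list and direction by p (or the member with the smallest p where none was called), and a fixed set of drug targets and reductase genes. Gene names came from RefSeq (6008 of 6692 features matched, 6000 at the same coordinates), as did the sequence windows. Motif windows were the 300 bases before each coding start and can include transcribed bases. Motif shares describe whole lists, some of them defined by a regulator, and called and uncalled members were not compared. A gene withheld for evaluation is not reported here.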

Additional observations from a re-analysis of the deposited data

How the results depend on the processing

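The difference of the responses was called in 1340 genes with DESeq2 size factors, 1302 with upper-quartile scaling, 1345 without the filter on low counts, 1297 with counts thinned to the shallowest culture (chosen after seeing the data) and 1576 with DESeq2's test, against 1352. Fitting the 8 cultures alone gave 2577 calls for the difference (1348 of them among the 1352) and 2428 for MTX against CM, against 1259. A replicate block shared by all groups gave 1318 for the difference, and a replicate block within each vehicle and its treatments gave 2192 for the difference and 2056 for MTX against CM. The labels do not say that culture numbers pair samples of different groups. Over genes, the deviations of culture 1 from culture 2 had a correlation of -0.24 for MTX with CM and 0.16 for DOX with CD. In the other treatment and vehicle pairs of the series it was 0.06 to 0.71. With 2 cultures per group, these values cannot show whether the samples were paired, so the block stays an alternative. Crossing the MTX and CM numbers in that block, chosen after seeing the data, gave 2401 and 2278 calls. The first technical replicates alone gave 1419 calls for the difference and the second alone, both chosen after seeing the data, gave 616 calls for the difference and 754 for MTX against CM. Leaving out 1 culture gave 815 to 1041 calls for the difference, 513 to 1159 for MTX against CM, 1722 to 2513 for DOX against CD and 0 for CM against CD. Without MTX culture 2, CM culture 2, DOX culture 1 or CD culture 2 the difference had 832, 815, 832 and 837 calls. Of the 1352 genes, 637 (47.1%) were called in all 8 of these fits and 0 changed sign. Of 133 named genes with a called difference, 125 were still called in the first and 97 in the second technical replicates, and 0 changed sign. With 2 cultures per group, a difference that misses the threshold is not shown to be absent.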
